A study of Arabidopsis thaliana with 7 samples.

Results

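The comparison described here sets flowers of the Arabidopsis thaliana double mutant arf6 arf8 against flowers of wild-type Columbia. It rests on 4 of the 7 single-colour Affymetrix arrays of the study, chosen by their titles: arf6 arf8 untreated, arf6 arf8 sprayed with indole-3-acetic acid (IAA, the main natural auxin), Columbia untreated and Columbia sprayed with IAA. Each of these groups is 1 array. The plants were grown for 6 weeks, and the RNA came from whole flowers of stages 1 to 14, so each array averages over stages and organs. The IAA spray held 1% methanol and 0.05% Tween-20, flowers were taken 30 minutes after it, and untreated plants were not sprayed. The IAA concentration is 10 µM in the sample labels but 10 mM in the text of the series. A further mutant, labelled arf6/arf6 ARF8/arf8 and written in the series text with ARF6 as the heterozygous gene, has 1 untreated and 1 IAA array and is called the third genotype. Its arrays entered the model that sets the error. A wild-type array sprayed without IAA (mock) was left out of the model and is quoted for comparison.

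ARF6 and ARF8 are auxin response factors, transcription factors that bind auxin response elements in promoters and activate genes once auxin has led to the breakdown of the Aux/IAA repressors bound to them. They act redundantly late in flower development, in filament elongation, petal growth, anther opening and maturation of the gynoecium, and jasmonate made in the stamens is part of that programme. Flowers that lack both factors are known to stay closed and infertile.

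Neither ARF6 nor ARF8 had a probe set with a listed gene, so the labelled genotypes could not be checked through their own transcripts. The median intensity of the 7 arrays lay between 240.85 and 261.5. The 10th percentile was 9.8 and 17.9 on the untreated and IAA arrays of the double mutant, against 9.5 and 9.8 in wild type, and it was 26.9 on the mock array. Values below 62.4, the 25th percentile of the 6 modelled arrays, were raised to that floor before log2. The highest of the 6 arrays had to exceed 245.5, and 12758 probe sets passed. Differences below are arf6 arf8 minus wild type on this log2 scale, averaged over the untreated and the IAA pair, with the standard error (SE) of the fit. Array values are deposited intensities, untreated first and then IAA. As no group has a repeat array, a p-value does not measure the spread between repeats. It weighs a genotype difference against how far the 6 arrays depart from additive genotype and treatment terms. That error is drawn toward a value shared by all probe sets. A response to IAA that differs between genotypes counts as error in this fit.

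The sugar carrier genes SWEET9 and SWEET14, the terpene synthase gene AT3G25810 and the cell wall genes EXPA8 and GH9B11 stood among the deepest falls in the double mutant. The expansin-like gene EXLB1, the thionin gene THI2.2, the linker histone gene HIS1-3 and the cold-induced gene COR15A stood among the largest rises. With limma and Benjamini-Hochberg adjustment at 0.05, 2307 of the 12758 probe sets passed, which is 18.1%. Of these 1243 were higher (9.74%) and 1064 lower (8.34%), and which direction held more calls turned with the setting: bright-median scaling gave 1051 higher and 1186 lower, the fit without the untreated arf6 arf8 array 739 and 915, and the fit without its IAA array 279 and 405. The falls were deeper than the rises: 99 lower and 13 higher probe sets changed at least 4-fold, and 32 lower and 2 higher at least 8-fold. Both double-mutant arrays lay at or below the floor for 32 of the lower probe sets, and both wild-type arrays for 3 of the higher ones. The count of 2307 was 684 without the arf6 arf8 IAA array and 1280 without that of wild type.

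The untreated pair and the IAA pair share no array, so they can be set side by side. At least 2-fold lower were 395 probe sets in the untreated pair (3.1%) and 553 in the IAA pair (4.33%). They had 278 in common, 70.4% of the untreated and 50.3% of the IAA set. At least 2-fold higher were 350 (2.74%) and 433 (3.39%), with 184 in common, 52.6% and 42.5% of the sets. No probe set was 2-fold higher in 1 pair and 2-fold lower in the other, and 20 were opposite at 1.5-fold.

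**Figure D1:**
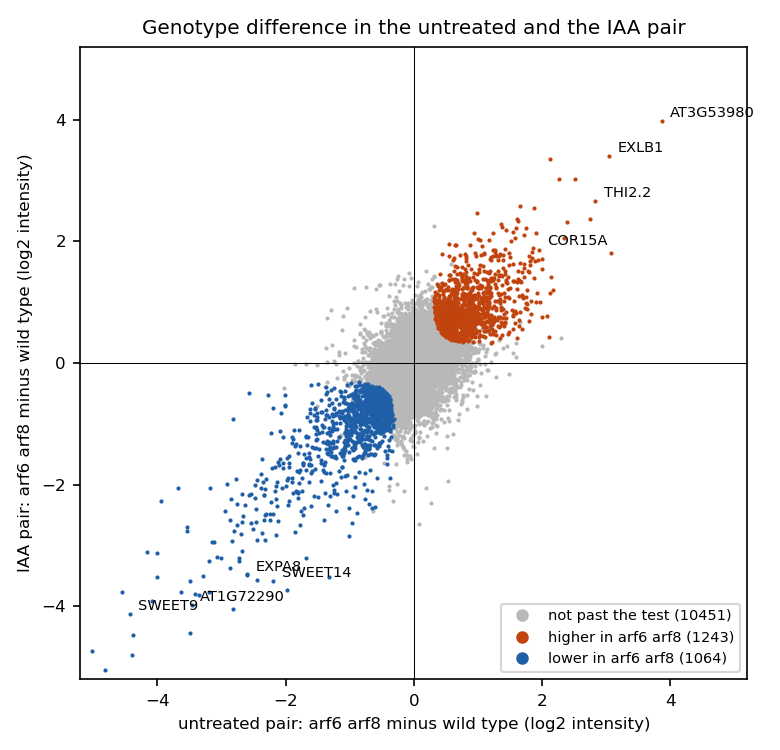
Difference arf6 arf8 minus wild type in log2 intensity, in the untreated pair (horizontal) and the IAA pair (vertical), 1 point for each of the 12758 probe sets tested. The 1243 higher (orange) and 1064 lower (blue) probe sets lie in the upper right and lower left, and the lower ones reach farther from the origin.

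SWEET9, the sucrose exporter that nectaries need to secrete nectar, read 82.6 and 83.5 in arf6 arf8, against 1781.9 and 1460.6 in wild type. It was the deepest fall among probe sets with 1 gene, at -4.28 ± 0.15 (limma, adjusted p = 2.55e-05). The mock array read 1627.1, near the other wild-type arrays. SWEET9 was the measured member of a nectary marker list that had 2 genes on the arrays, so that list rests on this gene. In whole flowers, fewer cells of a type and less RNA per cell cannot be told apart.

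Other members of the SWEET family, membrane carriers that move sugars along their gradient, went in both directions. Of 13 measured SWEET genes 4 were lower and 4 higher, against 8.34% and 9.74% over all probe sets tested. The other 5 did not pass (SAG29, also called SWEET15, is one of these). The median difference was 0.15, against 0.03 over all probe sets tested. SWEET14, a sucrose carrier, read 185.7 and 57.7 in arf6 arf8, against 848.8 and 746.8 in wild type, a difference of -2.89 ± 0.33 (limma, adjusted p = 0.00255). Its value with IAA lay at the floor, and the fall was steeper in the IAA pair (-3.58) than in the untreated pair (-2.19). SWEET13, its close relative, fell by 0.97 ± 0.15, with 196.5 and 217.2 in arf6 arf8, against 393.2 and 419.2 in wild type (limma, adjusted p = 0.0072). SWEET13 passed the filter only through its wild-type arrays, so its fall lends no support to the count of lower members. SWEET4, a hexose carrier, had the smallest of the falls, at -0.64 ± 0.15 (limma, adjusted p = 0.0275).

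In the opposite direction, SWEET10 read 4688.9 and 6311.8 in arf6 arf8, against 1890.8 and 2457.9 in wild type, a rise of 1.34 ± 0.15 (limma, adjusted p = 0.0022). SWEET10 was thus the brightest SWEET signal in the double mutant, though brightness of different probe sets does not rank transcripts. SWEET7 rose by 1.12 ± 0.20, SWEET11, a sucrose carrier of phloem loading, by 0.90 ± 0.16, and SWEET1, a glucose carrier, by 0.65 ± 0.15 (limma, adjusted p from 0.0116 to 0.0296). No array of one genotype overlapped the other genotype for any of these 8 genes, which held for 57.2% of all probe sets tested. It also held for 2244 of the 2307 called probe sets, so it adds no support to these calls. Without the arf6 arf8 IAA array 1 higher and 3 lower calls were made among the 13, and without that of wild type 3 and 3. SWEET1, SWEET4 and SWEET11 lost their calls without either of these arrays, SWEET7 without the first, and SWEET4 also without the untreated wild-type array.

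Cell wall genes mostly fell. Of 9 measured expansins, the proteins that loosen walls during growth, 6 were lower and 1 was higher, against 8.34% lower and 9.74% higher over all probe sets tested. The median of the expansins was -0.62. EXPA8 was lowest, with 289.1 and 163.9 in arf6 arf8, against 1749.3 and 1844.1 in wild type, a difference of -3.04 ± 0.22 (limma, adjusted p = 0.000398). EXPB5 at -1.01 ± 0.15, EXLA2 at -0.86 ± 0.19 and EXPA4 at -0.83 ± 0.14 followed (limma, adjusted p from 0.00652 to 0.0256). EXLB1, an expansin-like gene, was the exception: it read 700.8 and 742.5 in arf6 arf8, against 84.8 and 70.1 in wild type, a rise of 3.23 ± 0.19 (limma, adjusted p = 0.000203). EXPA8 and EXLB1 were called when any 1 of the 6 arrays was left out. The 6 lower calls were 1 without the arf6 arf8 IAA array and 3 without that of wild type, and 4 without either untreated array of these genotypes. EXPB5, EXPA4 and EXLA2 were among those lost without the arf6 arf8 IAA array, and EXLA2 also without that of wild type.

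The list of cellulose synthase-like genes, COBRA and endoglucanases of family GH9 had 17 measured members, with a median of -0.71. Of the 17, 11 were lower and 1 higher, against 8.34% and 9.74% over all probe sets tested. GH9B11 was at or below the floor in arf6 arf8, at 61.3 and 17.5, against 401.1 and 530.4 in wild type, and was at least 7.39-fold lower (limma, adjusted p = 0.000116). It passed the filter only through its wild-type arrays, so its fall lends no support to the count of lower members. CSLA01, a mannan synthase gene, read 389.9 and 261.5 in arf6 arf8, against 1216.1 and 1015.2 in wild type, a difference of -1.80 ± 0.17 (limma, adjusted p = 0.00125). GH9C2 had 1137.7 and 892.4 in arf6 arf8, against 4494.5 and 2641.2 in wild type, a difference of -1.77 ± 0.15 (limma, adjusted p = 0.000788). For each of these the arrays of the genotypes stood apart, as they did for 57.2% of all probe sets tested and for 2244 of the 2307 called. That separation adds no support to the calls. GH9B8 fell by 1.36 ± 0.28, while GH9B18 rose by 0.91 ± 0.18 (limma, adjusted p = 0.0193 and 0.0153). The 11 lower calls were 6 without the arf6 arf8 IAA array and 7 without the untreated wild-type array. GH9B8 lost its call without the untreated arf6 arf8 array, and GH9B18 without either arf6 arf8 array or the untreated wild-type array.

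Wall enzymes of other kinds were few on named probe sets. XTH33, a xyloglucan endotransglucosylase, fell by 1.08 ± 0.16 and was the only one of 3 measured members to pass (limma, adjusted p = 0.00606), with XTH32 at 0.41 ± 0.17 and XTH16 at -0.32 ± 0.13. XTH33 passed the filter only through its wild-type IAA array, at 245.9, barely above the limit. It was not tested when either wild-type array was left out. XTH33 did not pass when the floor was set at the 40th percentile, at -0.34, or when the fit had an intensity trend (limma, adjusted p = 0.246 and 0.0721). Both measured members of the list of pectin-modifying enzymes rose, against 9.74% of all probe sets tested. Enzymes of this kind outside the list were not counted. PMEPCRF read 645.1 and 714.5 in arf6 arf8, against 353.2 and 339.9 in wild type, and PME61 read 434.6 and 443.5 in arf6 arf8, against 223.4 and 232.9 in wild type (limma, adjusted p = 0.00673 and 0.00482). XTH33 and PMEPCRF lost their calls without the arf6 arf8 IAA array. WSD1, a wax ester synthase of the cuticle, fell by 1.30 ± 0.15, with 559.9 and 514.9 in arf6 arf8, against 1612.2 and 1083.3 in wild type (limma, adjusted p = 0.00283).

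**Figure D2:**
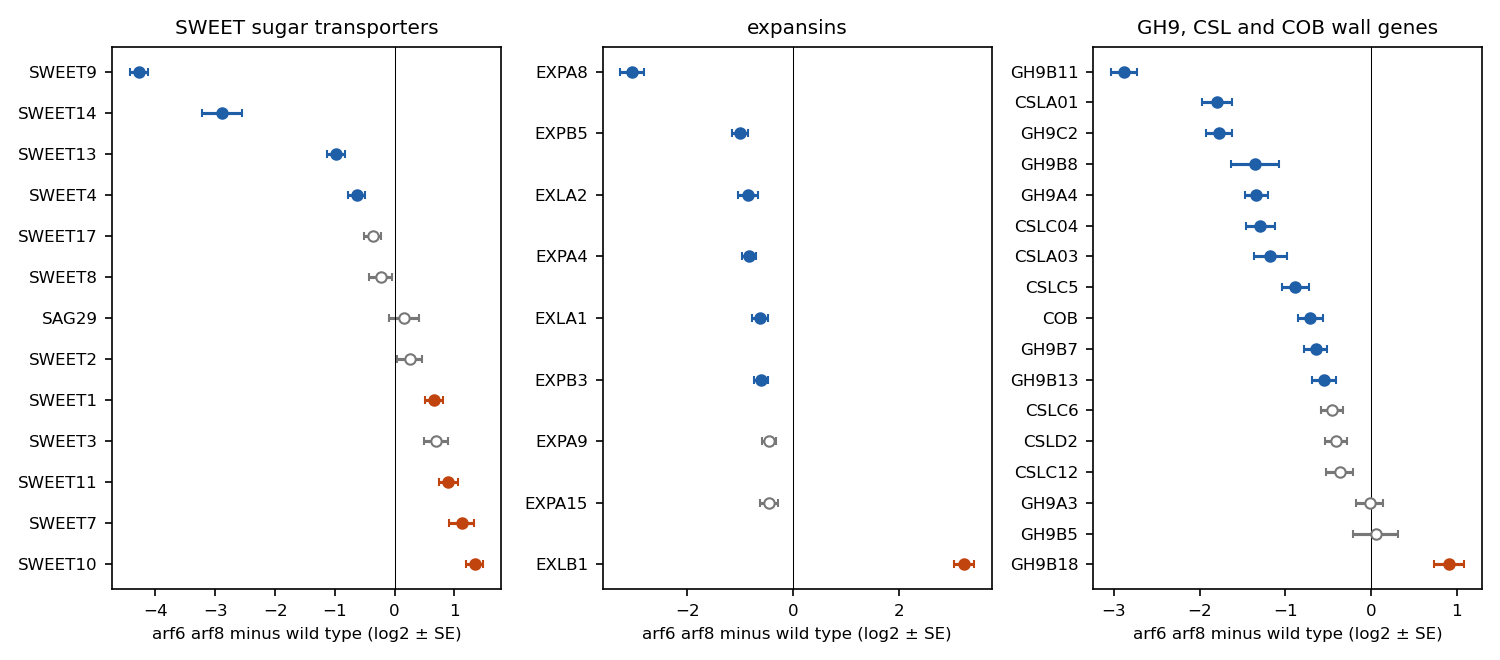
Difference arf6 arf8 minus wild type (log2, bars ± SE of the fit) for all measured SWEET carriers, expansins and GH9, cellulose synthase-like and COBRA genes, with filled blue (lower) or orange (higher) points past the test and open points not past it. SWEET genes spread from -4.28 to 1.34, and the wall genes lie mostly left of 0, with EXLB1 at 3.23 on the far right.

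Both measured terpene synthase genes fell, of 16 with a named probe set. Such enzymes make volatile terpenes, a part of flower scent. AT5G44630 read 442.2 and 319.7 in arf6 arf8, against 2292.6 and 2217.9 in wild type, a difference of -2.58 ± 0.15 (limma, adjusted p = 0.000203). AT3G25810 read 12.3 and 13.0 in arf6 arf8, against 444.7 and 474.0 in wild type, and was at least 7.36-fold lower (limma, adjusted p = 8e-05). It passed the filter only through its wild-type arrays, where it is high, and the other listed genes did not pass the filter. The count of falls therefore supports nothing about the family.

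Markers of pollen and of the tapetum, the anther layer that feeds developing pollen, moved in opposite directions. Against 8.34% of all probe sets tested, 4 of 5 measured pollen markers were lower, with a median of -1.09. Their summed intensity was 8650.6 and 9136.4 in arf6 arf8, against 12109.2 and 13724.1 in wild type. AT2G26450 read 473.2 and 456.0 in arf6 arf8, against 976.9 and 1116.6 in wild type, and ANX2, a receptor kinase of the pollen tube, read 193.2 and 129.0 in arf6 arf8, against 365.9 and 531.1 in wild type (limma, adjusted p = 0.00283 and 0.00963). ANX2 passed the filter only through its wild-type arrays, so its fall lends no support to the count of lower markers. AT3G07820, the brightest of the list, was at -0.30 ± 0.14 and did not pass. Of 4 measured tapetum markers 3 were higher, against 9.74% of all probe sets tested, with a median of 1.12. The sum of these 4 markers was 4044.5 and 2931.3 in arf6 arf8, against 1234.7 and 1711.4 in wild type.

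The tapetum list was therefore high in both arf6 arf8 arrays while pollen transcripts were present at a reduced level. The called markers moved the same way in the third genotype, against the same wild-type arrays. Pollen markers were at -0.53 to -1.17 there and tapetum markers at 0.75 to 1.06. Only AT2G26450 and AT1G75920 passed the test there (limma, adjusted p = 0.0308 and 0.0461). No called marker differed between the mutants (limma, adjusted p from 0.207 to 0.867). AMS, a bHLH factor needed in the tapetum, read 321.1 and 387.8 in arf6 arf8, against 177.6 and 217.1 in wild type (limma, adjusted p = 0.0254). AT5G13380 of this list had 905.0 and 483.6 in arf6 arf8, against 184.9 and 362.6 in wild type, and did not pass (limma, adjusted p = 0.0599). Without the arf6 arf8 IAA array 1 of the pollen calls and 0 of the tapetum calls were made, and without the untreated arf6 arf8 array 4 and 0. Without the untreated wild-type array 4 pollen and 1 tapetum calls were made. The part that the mix of cell types or stages has in the other results was not tested.

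**Figure D3:**
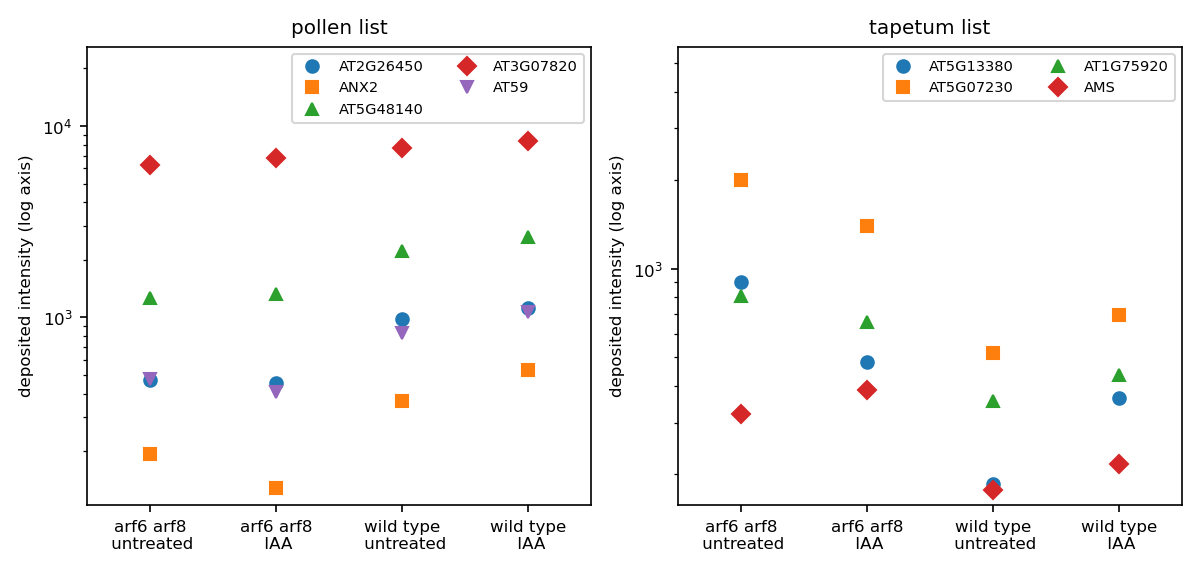
Deposited intensity (log axis) of the 5 measured pollen markers and the 4 measured tapetum markers on the untreated and IAA arrays of arf6 arf8 (left) and wild type (right), 1 symbol per gene. Every pollen marker is lower and every tapetum marker higher on both arf6 arf8 arrays than on the wild-type array of the same treatment, with AT3G07820 and AT5G13380 not past the test.

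Lists for green tissue and dividing cells had no calls. None of 7 nuclear photosystem genes passed, at a median of 0.18, and none of 3 cell cycle genes, all aurora kinases, and 2 core histone genes did. In limma 0 of these 12 genes had an unadjusted p under 0.05. Without the untreated arf6 arf8 array LHCB4.2, a light-harvesting protein gene, and AUR2 were called lower, at -0.70 and -0.79 (limma, adjusted p = 0.0477 and 0.05). Their difference was -0.67 and -0.87 in the IAA pair and -0.15 and -0.015 in the untreated pair. Genes encoded in the plastid had 66 measured members, of which 7 were lower (10.6%) and none higher, with a median of -0.25. The share lower was near the 8.34% over all probe sets tested. The largest fall was petG, a subunit of the cytochrome b6f complex, with 205.9 and 312.7 in arf6 arf8, against 584.9 and 744.4 in wild type (limma, adjusted p = 0.00169). The plastid count was 1 without the arf6 arf8 IAA array, 3 without that of wild type, 11 without the untreated wild-type array and 12 without the untreated array of the third genotype. Of 7 tubulin genes 2 were lower, against 8.34% of all probe sets tested. These were TUA1 by 0.62 ± 0.15 and TUB9 by 0.58 ± 0.13 (limma, adjusted p = 0.0304 and 0.0273). Both lost their calls without either arf6 arf8 array or the wild-type IAA array, and TUB9 also without the untreated wild-type array.

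Auxin and jasmonate genes, the pathways tied to these factors, had few named probe sets. GH3 genes encode enzymes that conjugate IAA or related acids to amino acids. All 3 measured members of the GH3 list passed, against 18.1% of all probe sets tested, but not in 1 direction. GH3.17 read 131.8 and 246.1 in arf6 arf8, against 383.1 and 413.4 in wild type (limma, adjusted p = 0.0153). WES1, also called GH3.5, read 1963.1 and 2995.3 in arf6 arf8, against 1138.7 and 1258.0 in wild type (limma, adjusted p = 0.007). GH3.3, an auxin-inducible member, was higher on each IAA array, and its values overlapped between genotypes, with 539.9 and 955.0 in arf6 arf8, against 725.1 and 2011.6 in wild type (limma, adjusted p = 0.0322). HAT2, an auxin-inducible homeodomain gene, rose by 0.74 ± 0.16 with overlapping arrays, at 1321.3 and 3942.4 in arf6 arf8, against 881.7 and 2111.9 in wild type (limma, adjusted p = 0.0209). It lost the call without the IAA array of either genotype. The Aux/IAA gene IAA18 was at 0.46 ± 0.14, and the auxin synthesis genes YUC6 and YUC2 were at -0.54 ± 0.38 and -0.03 ± 0.14, none past the test. IAA18 passed only under an intensity trend and under a stricter filter, the 70th percentile (limma, adjusted p = 0.0309 and 0.0378). The growth-promoting ARGOS-like gene ARL and the TCP factor gene TCP15 both fell, by 0.55 ± 0.15 and 0.68 ± 0.16 (limma, adjusted p = 0.0492 and 0.0276). WES1 and GH3.3 lost their calls without the arf6 arf8 IAA array, and GH3.3 also without that of wild type. TCP15 and ARL lost theirs without either arf6 arf8 array or the untreated wild-type array, and ARL also without either array of the third genotype (limma, adjusted p = 0.0667 without the untreated one). ARL also failed with quantile normalization, the floor at the 10th percentile, the 4 arrays alone or the mock array kept (limma, adjusted p from 0.051 to 0.0681).

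In jasmonate synthesis OPCL1 was at -0.61 ± 0.17 and AIM1 at -0.42 ± 0.14, both genes of the peroxisomal steps, and neither passed (limma, adjusted p = 0.0501 and 0.0766). OPCL1 was past the threshold under 9 alternatives, at -0.53 to -0.64: both other scalings, the floor at the 40th percentile, the filter at the 70th, the intensity trend, the offset of 64, the 4 arrays alone, and each fit that left out 1 array of the third genotype (limma, adjusted p from 0.0278 to 0.0498). OPCL1 did not pass when any 1 of the 4 compared arrays was left out. It also failed with the floor at the 10th percentile, with the mock array kept and without any filter. AIM1 passed only with the filter at the 70th percentile and with the trend (limma, adjusted p = 0.0462 and 0.0308). Among 4 measured response genes, MYC4, a transcription factor of jasmonate signalling, fell by 0.99 ± 0.21, with 165.1 and 110.4 in arf6 arf8, against 324.9 and 221.6 in wild type (limma, adjusted p = 0.0221). The mock array read 170.1, near the untreated double mutant. MYC4 passed the filter only through its untreated wild-type array and was not tested without it. Its relative MYC3 was at -0.05 ± 0.14. THI2.2, a thionin, read 443.7 and 395.5 in arf6 arf8, against 23.5 and 20.9, below the floor, in wild type, and was at least 6.71-fold higher (limma, adjusted p = 0.00878). The related THI2.1 was bright on all arrays, with 9972.8 and 10233.1 in arf6 arf8, against 8514.8 and 9473.5 in wild type, and was at 0.17 ± 0.13. Without the arf6 arf8 IAA array THI2.2 and MYC4 lost their calls (limma, adjusted p = 0.116 and 0.162), and MYC4 also without the untreated arf6 arf8 array.

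Peptide genes split by member. LCR72, a plant defensin, read 496.6 and 514.6 in arf6 arf8, against 1836.1 and 2275.2 in wild type, a difference of -2.02 ± 0.17 (limma, adjusted p = 0.000791), whereas the defensin LCR69 rose by 0.72 ± 0.14 (limma, adjusted p = 0.0165). With THI2.2, the 6 measured defensins and thionins had 2 higher and 1 lower, against 9.74% and 8.34% over all probe sets tested. Of 11 measured genes for RALF-like and other small signalling peptides 4 were lower and 1 was higher, against 8.34% and 9.74% over all probe sets tested. RALFL25 had 445.8 and 480.2 in arf6 arf8, against 1486.9 and 1787.9 in wild type, a difference of -1.82 ± 0.14 (limma, adjusted p = 0.000479). RALFL28 had 542.2 and 566.3 in arf6 arf8, against 235.8 and 174.6 in wild type, a rise of 1.45 ± 0.18 (limma, adjusted p = 0.00347). RALFL28 and LCR69 lost their calls without the arf6 arf8 IAA array, and LCR69 also without the untreated wild-type array. The 4 lower calls among these peptides were 2 without the IAA array of either genotype.

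Among transcription factors, the list of bHLH genes named by number, with SPT, had 5 measured members. Against 9.74% of all probe sets tested, 4 of the 5 were higher. They comprise bHLH115 at 1.17 ± 0.20, bHLH121 at 0.95 ± 0.21 and bHLH104 at 0.92 ± 0.14, which are known for iron homeostasis, and the carpel factor SPT at 0.73 ± 0.14 (limma, adjusted p from 0.00698 to 0.0237). bHLH115 read 1310.1 and 1626.8 in arf6 arf8, against 778.8 and 542.9 in wild type, and its mock value, 1249.7, lay near the double mutant. The fifth, bHLH34, also known for iron homeostasis, was at -0.47 ± 0.18 and did not pass (limma, adjusted p = 0.119), but was called lower without the untreated wild-type array. Without the arf6 arf8 IAA array 0 of the 4 were called, and 2 without that of wild type. In limma all 5 had an unadjusted p under 0.05 on the full set of arrays, bHLH34 in the other direction. The bHLH factors AMS, MYC3, MYC4 and ALC stand in other lists, and of these AMS was higher and MYC4 and ALC were lower. ALC, the close relative of SPT in fruit opening, had a value opposite to it, -0.50 ± 0.13 (limma, adjusted p = 0.0386), and lost its call without any 1 of the 6 arrays and with the 4 arrays alone. Of 8 measured bZIP genes 2 were lower, against 8.34% of all probe sets tested. BZIP61, 1 of these, had 130.6 and 262.8 in arf6 arf8, against 333.0 and 735.7 in wild type (limma, adjusted p = 0.00168).

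Detoxification and oxidation enzymes gave 2 of 6 glutathione transferases higher and none lower, against 9.74% and 8.34% over all probe sets tested. GSTU20 read 5609.9 and 4279.3 in arf6 arf8, against 1706.0 and 1377.0 in wild type, a rise of 1.68 ± 0.13 (limma, adjusted p = 0.000516). Of 5 peroxidases, PRXR1 rose by 1.40 ± 0.13, with 11027.5 and 13504.4 in arf6 arf8, against 4261.1 and 5005.1 in wild type (limma, adjusted p = 0.00109). AT5G64120, the peroxidase gene PRX71, fell by 1.87 ± 0.38 (limma, adjusted p = 0.0191). Its fall was uneven, with 77.4 and 224.2 in arf6 arf8, against 546.9 and 422.6 in wild type. None of 3 measured flavonoid genes passed, and CHIL, a chalcone isomerase-like gene, was at -0.29 ± 0.23 and the glycosyltransferase gene UGT78D1 at -0.05 ± 0.13. In limma 0 of these 3 had an unadjusted p under 0.05, though CHIL was called lower, at -0.71, without the untreated wild-type array. Of 6 measured P450 genes, CYP71B6 rose by 0.97 ± 0.14 (limma, adjusted p = 0.00639). CYP71B31 was at least 2.63-fold lower (limma, adjusted p = 0.0412), and lost the call with the floor at the 40th percentile, an intensity trend or the mock array kept (limma, adjusted p = 0.19, 0.12 and 0.0522). It read 1.4 and 22.1 in arf6 arf8, against 300.9 and 89.7 in wild type, with -2.27 in the untreated and -0.52 in the IAA pair. CYP71B31 passed the filter only through the untreated wild-type array and was not tested without it. Without the untreated arf6 arf8 array AT5G64120 and CYP71B31 lost their calls, and without its IAA array CYP71B31 and CYP71B6 did.

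The 15 largest falls and 15 largest rises among probe sets with 1 gene were listed by rule. The falls ran from 7.36-fold, a lower bound, to 19.4-fold and the rises from 3.53-fold to 15.2-fold (limma, adjusted p from 2.55e-05 to 0.00878). For all 30 the mock array lay on the wild-type side of both double-mutant arrays. Leaving out any 1 of the 6 arrays kept all 30 calls, except THI2.2 and AT1G80180 without the arf6 arf8 IAA array. Most of them carry a locus code and no gene name in the tables used. AT3G53980 rose most, with 2498.2 and 2285.3 in arf6 arf8, against 171.7 and 144.2 in wild type. AT3G55920 read 317.3 and 260.9 in arf6 arf8, against 1.0 and 1.8 in wild type, and was at least 4.61-fold higher.

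Named genes among the rises include HIS1-3, a linker histone known to respond to drought, and COR15A, a cold-induced protein that protects chloroplast membranes. HIS1-3 had 973.5 and 1424.1 in arf6 arf8, against 321.8 and 305.6 in wild type (limma, adjusted p = 0.00122). COR15A had 6074.8 and 4482.1 in arf6 arf8, against 1577.7 and 1227.9 in wild type (limma, adjusted p = 0.00109). Both stood above every wild-type array, and the linker histone gene HON4 was at 0.20 ± 0.13, not past the test.

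**Figure D4:**
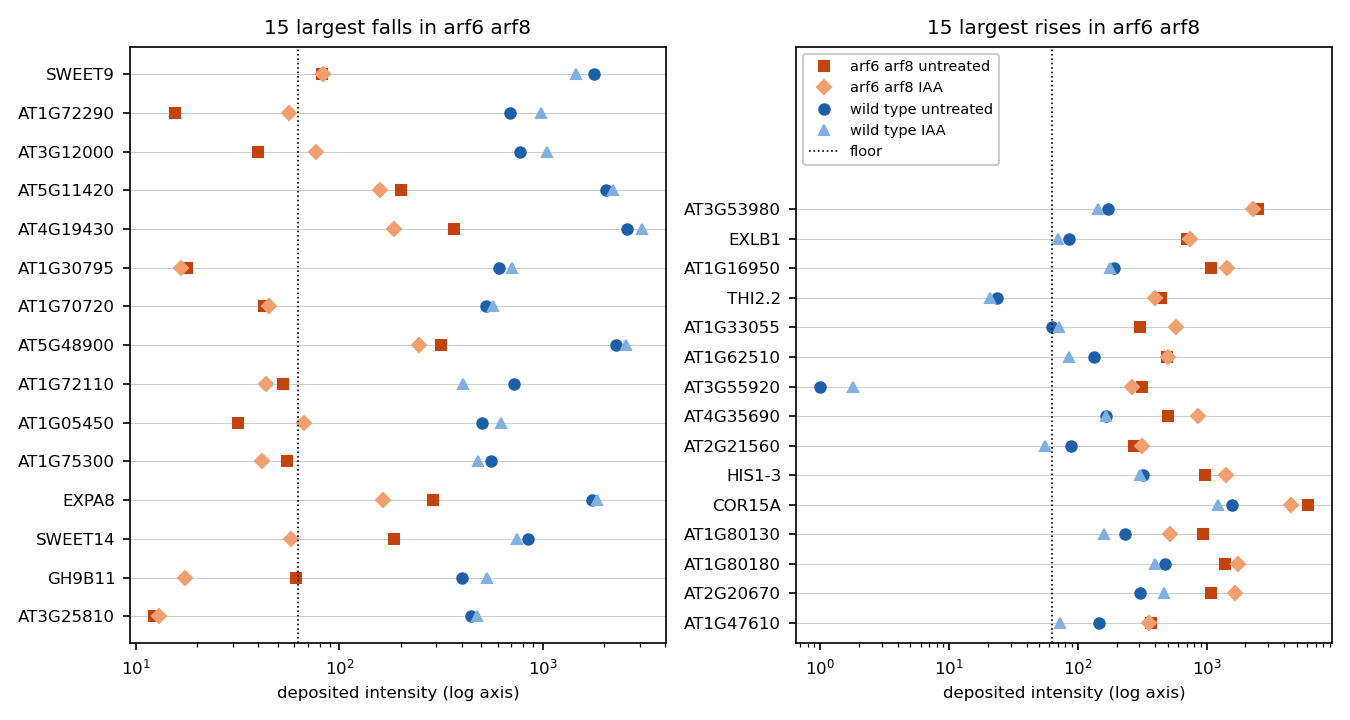
Deposited intensity (log axis) of the 15 largest falls (left) and 15 largest rises (right) on the arf6 arf8 arrays (orange) and the wild-type arrays (blue), with the floor of 62.4 dotted. In each row the arf6 arf8 points stand apart from the wild-type points, and for AT3G55920 and THI2.2 the wild-type points lie below the floor.

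The third genotype, which by either notation keeps a wild-type copy of 1 of the genes, was measured alongside. The double mutant differed from it at 182 probe sets (1.43%), 49 higher and 133 lower. Of the 15 largest falls 13 differed between these mutants and of the 15 largest rises 7 did, though the double-mutant arrays that chose the genes enter this test too. SWEET9 was at -4.28 ± 0.15 in the double mutant and -1.81 ± 0.15 in the third genotype, each against the same wild-type arrays, and the mutants differed by -2.47 ± 0.15 (limma, adjusted p = 0.000561). AT3G25810 lay at or below the floor on all arrays of both mutants, so no difference between them could be measured.

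Several genes were low in the double mutant and near wild type in the third genotype. AT1G30795 read 17.9 and 16.6 in arf6 arf8 and 665.1 and 926.7 in the third genotype, against 607.0 and 706.8 in wild type. AT3G12000 was at -3.70 ± 0.18 in arf6 arf8 and -0.15 ± 0.18 in the third genotype, each minus wild type, which read 777.4 and 1045.0. AT1G05450 read 31.8 and 67.2 in arf6 arf8 and 448.4 and 644.6 in the third genotype, against 502.2 and 624.0 in wild type. In these 3 the double mutant was below the third genotype (limma, adjusted p = 0.000148, 0.000328 and 0.000258). CSLA01 was of this kind too, at -1.80 ± 0.17 in the double mutant and 0.32 ± 0.17 in the third genotype (limma, adjusted p = 0.00238 for the difference).

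AT1G72290 moved in opposite directions in the mutants. It had 15.5 and 56.6 in arf6 arf8 and 3148.3 and 2990.3 in the third genotype, against 690.1 and 984.0 in wild type. The double mutant was at least 13.2-fold below wild type (limma, adjusted p = 9.64e-05), while the third genotype was at 1.90 ± 0.18 above it.

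**Figure D5:**
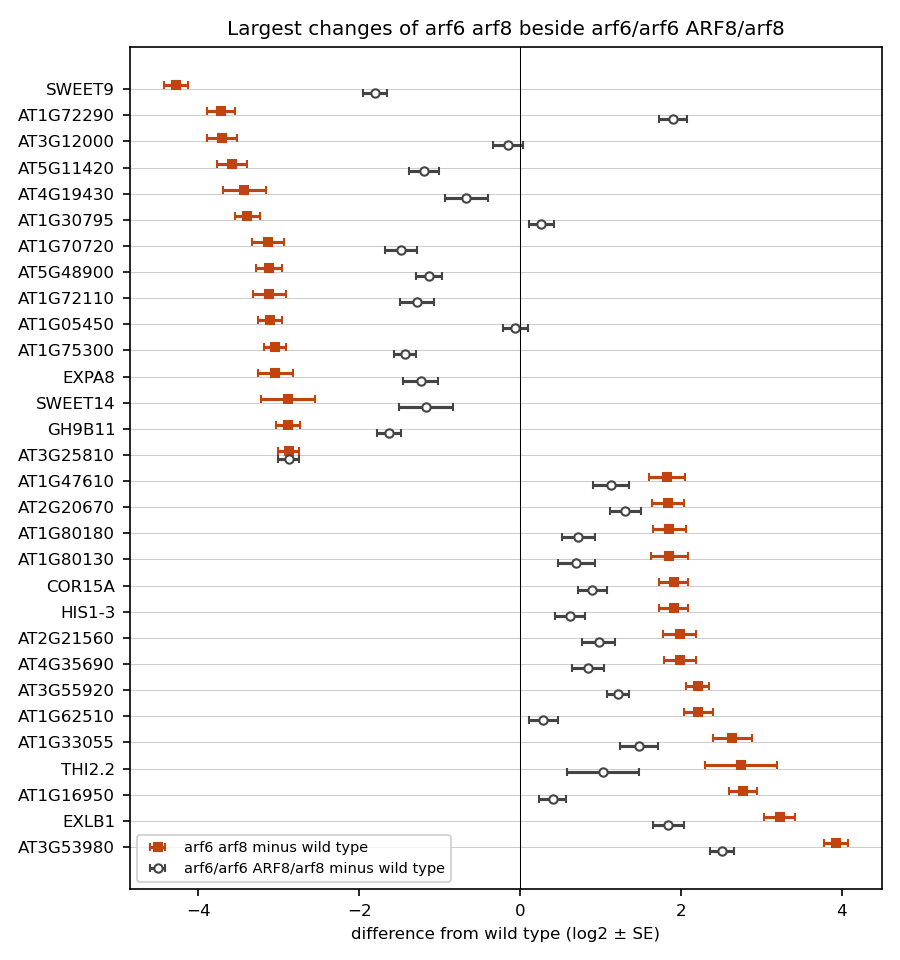
Difference from wild type (log2, bars ± SE of the fit) of the 30 largest changes in arf6 arf8 (orange squares) and of the same genes in the third genotype, arf6/arf6 ARF8/arf8 (open circles). The third genotype lies nearer 0 for most genes, on the same value for AT3G25810 and on the other side for AT1G72290 (1.90).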

How the data were processed

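RNA from whole flowers was hybridised to 1 array per group. The authors deposited linear intensity values, and the submitters' processing notes name MAS5. The mean over probe sets other than controls, with 2% trimmed at either end, was 497 on every array, so the authors' scaling was kept. How scaling factors and detection calls were set is not given in the sources used here. After 64 control probe sets were left out, 22746 remained. Of these 13513 carry 1 gene in the platform annotation of 2016, 503 several and 8730 none listed, and a probe set with none listed is unnamed here, not without a gene. Names were updated through the RefSeq table of TAIR10.1 (13436 matched).

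The 6 arrays other than mock were floored and taken to log2. Genotype and treatment were additive terms in limma 3.58.1 (lmFit and eBayes, run in R 4.3.3), which left 2 residual degrees of freedom beside a prior of 5.051. p-values were adjusted over 12758 probe sets. A fold is a lower bound, written "at least", where every array of a genotype lay at or under the floor. The labels do not say whether arrays came from separate plants. Precision is limited by the number of arrays.

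The genes named are the 15 largest rises and falls past the test and, in each gene list, up to 4 members per direction past it, or otherwise the 2 largest. Of 56 lists 39 had a measured member. Lists were matched mostly by symbol, and after the values had been seen 4 symbols that belong to other proteins were taken out (a chitinase, a formate dehydrogenase and 2 peptide deformylases) and SAG29, which is SWEET15, was added to the SWEET genes. The comparison and the lists were chosen with earlier results of these data known. In a simulation of this comparison, 200 of 12758 probe sets were changed. The test found 73% of those changed 2-fold and 99% of those changed 4-fold, and 3.37% of its calls were false. The simulated noise was independent and drawn from the fitted error model, with no floor and no error shared by an array. These rates therefore describe that model and are not the rate of false calls in the data. Alternatives covered the floor, the filter, the scaling, the arrays in the fit, the log offset and an intensity trend.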

Additional observations from a re-analysis of the deposited data

How the results depend on the processing

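The count of 2307 stayed between 2027 and 2877 with the floor at the 10th or 40th percentile, the filter at the 70th, quantile or bright-median scaling, an intensity trend, the 4 arrays of the comparison alone, the mock array kept, or an offset of 64 in place of the floor. Without any filter limma called 0 (0 higher, 0 lower), with 4642 of 22746 at an unadjusted p under 0.05, and the 3922 probe sets at or below the floor on all 6 arrays entered that fit. Leaving out 1 array gave 684 to 2058 calls, 279 to 1072 higher and 405 to 986 lower. At 1.5-fold and 4-fold the untreated pair had 1168 and 17 probe sets higher and 974 and 106 lower, and the IAA pair 1581 and 30 higher and 1541 and 130 lower. Of 89 named genes past the test 42 lost the call without the arf6 arf8 IAA array, 17 without its untreated array, 15 and 11 without the IAA and untreated wild-type arrays, and at most 3 under the other alternatives with a filter; the cause was not tested. Directions that reversed belong to genes not past the test. Leaving out 1 array, YUC6 ran from -0.54 to 0.28, YUC2 from -0.098 to 0.035, CHIL from -0.71 to 0.14, AUR3 from -0.50 to 0.11, HTR12 from -0.50 to 0.22, HTB2 from -0.11 to 0.15 and SAG29 from -0.34 to 0.65, and with bright-median scaling HTB2 was at -0.017. The fit pairs the genotypes by treatment, and the labels give no replicate numbers for a further block. The planned search of promoters for auxin response elements was not run, as promoter sequences were not used here.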

Other observations

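The gene families below, outside the lists above, were picked after their values had been seen, so their counts and the adjusted p-values of their members describe them and support nothing about the families. Over all probe sets tested 9.74% were higher and 8.34% lower. Of 8 measured cold and dehydration genes 5 were higher and none lower, with a median of 0.92 against 0.03 over all probe sets tested. LEA, a dehydrin, read 806.4 and 688.0 in arf6 arf8 and 836.8 and 842.8 in the third genotype, against 213.7 and 308.3 in wild type (limma, adjusted p = 0.0036 for arf6 arf8 against wild type). COR27, a cold-regulated gene, read 581.8 and 2095.0 in arf6 arf8, against 332.5 and 777.1 in wild type, with overlap between the genotypes and the higher value on the IAA array of each (limma, adjusted p = 0.00727). The 5 calls were 2 without the arf6 arf8 IAA array and 3 without either untreated array. Of 8 measured ATG8 and ATG3 genes of autophagy 2 were higher, ATG8F with 3606.1 and 4435.9 in arf6 arf8, against 1875.7 and 2288.9 in wild type, and ATG8B with 976.2 and 1082.0 in arf6 arf8, against 572.1 and 667.8 in wild type (limma, adjusted p = 0.00458 and 0.0127). Of 6 genes of leucine breakdown and its electron transfer 3 were higher (0 without either arf6 arf8 array and 1 without the wild-type IAA array), among them IVD, isovaleryl-CoA dehydrogenase, at 0.91 ± 0.15 (limma, adjusted p = 0.00944). ATG8B and IVD lost their calls without the arf6 arf8 IAA array, ATG8B also without the untreated wild-type array and IVD without the untreated arf6 arf8 array.

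Serine carboxypeptidase-like genes had 18 measured members, 4 higher and 5 lower. Without the arf6 arf8 IAA array 1 was higher and 3 were lower, and without the untreated arf6 arf8 array 3 and 3. scpl47 read 91.4 and 130.0 in arf6 arf8 and 557.5 and 441.1 in the third genotype, against 454.2 and 486.3 in wild type, and was lower in the double mutant than in either (limma, adjusted p = 0.00128 against wild type and 0.00418 against the third genotype). Of 11 measured genes of the TBL family of wall polysaccharide acetyltransferases 1 was higher and 2 were lower. TBL26 had the same pattern, with 592.0 and 326.0 in arf6 arf8 and 1682.1 and 1212.9 in the third genotype, against 1751.6 and 1477.6 in wild type (limma, adjusted p = 0.00109 and 0.00554). Of 9 PRA1 genes, which encode membrane traffic proteins, 3 were lower, and PRA1.B6 read 100.8 and 164.5 in arf6 arf8, against 523.1 and 491.2 in wild type (limma, adjusted p = 0.00283). Of 15 measured UDP-glycosyltransferases 2 were higher and 1 was lower, 20% in all, near the 18.1% over all probe sets. In the UGT85A subfamily UGT85A3 was lower and UGT85A5 higher, at -1.83 ± 0.14 and 1.40 ± 0.18 (limma, adjusted p = 0.000479 and 0.00379), and UGT85A2 was at 0.61 ± 0.27 and did not pass.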
